A study of Bos taurus with 8 samples.

Results

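The insulin receptor, its adaptors, the class I phosphoinositide 3-kinase (PI3K), the kinase AKT1 and the FOXO transcription factors were followed here as 9 genes: INSR, IRS1, IRS2, PIK3CA, PIK3R1, PIK3IP1, AKT1, FOXO1 and FOXO3. They were chosen by gene symbol from a table of 28709 bovine genes. All 9 were found, and all 9 were among the 13557 genes that passed the filter on low counts. The cells were BUTE, an immortal line derived from the uterine epithelium of a Holstein cow, labelled wild type. One set of 4 libraries came from cells given 10 µM progesterone for 24 h, and the other set of 4 came from cells given the vehicle DMSO for the same time. Both sets had first spent 24 h in medium free of serum, steroids and phenol red, and both received insulin-like growth factor 1 (IGF1) throughout, at 50 ng/ml during treatment. All libraries therefore come from cells exposed to IGF1, and none without it was analysed here. The line came from a single animal, and nothing in the labels tells separate cultures from repeat libraries of 1 culture, so p-values reflect the spread of these libraries alone.

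Insulin and IGF1 activate receptor tyrosine kinases, which phosphorylate the adaptors IRS1 and IRS2. The adaptors recruit PI3K through its regulatory subunit, the catalytic subunit makes the lipid PIP3, and PIP3 brings AKT to the membrane, where it is activated. Active AKT phosphorylates FOXO proteins and keeps them out of the nucleus. In many tissues nuclear FOXO raises transcription of INSR and IRS2, so the pathway contains a feedback loop at the level of RNA. In human endometrium FOXO1 is known as a partner of the progesterone receptor. RNA levels, which are what was measured, do not report the phosphorylation of any of these proteins.

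Library totals ran from 23810861 to 32509786 estimated counts, and the 9 genes had between 155 (IRS2 in DMSO R9) and 10553 (AKT1 in DMSO R7) counts per library. Libraries carry the numbers of the table's columns: progesterone R1, R2, R3 and R6, and DMSO R1, R3, R7 and R9. DMSO R7 and R9 stood apart from the rest. Their log2 CPM correlated at 0.992 with each other across genes and at 0.949 to 0.962 with the other 6 libraries, which correlated among themselves at 0.983 to 0.992. Results for the 9 genes are therefore given with all libraries and also without this pair, which leaves 4 progesterone and 2 DMSO libraries. Of the epithelial markers, the keratin KRT8 was abundant (1348 to 2107 CPM with progesterone, 2286 to 2789 CPM with DMSO), whereas EPCAM stayed at or below 2.53 CPM and the claudins CLDN4 and CLDN7 had at most 3 counts in any library. The summed level of 10 epithelial markers was 1742 to 2661 CPM with progesterone and 2826 to 3080 CPM with DMSO. The summed level of 10 stromal markers was 12098 to 13286 CPM with progesterone and 13308 to 20610 CPM with DMSO, with both highest values in R7 and R9. None of the 8 epithelial markers tested passed in edgeR, and 1 of 10 stromal markers, POSTN, fell. The epithelial sum is mostly KRT8 (log2 fold change -0.51). KRT18, EPCAM, MUC1 and ESRP1, all at low levels, were at -1.49, -1.73, -1.25 and -0.79. KRT19, KRT7 and CDH1 were at 0.08, 0.22 and 0.37. Without R7 and R9, KRT8, KRT19 and KRT7 were at -0.39, -0.42 and -0.50, and CDH1 at 0.18. In that fit KRT18, EPCAM, MUC1 and ESRP1 were at -0.24, -0.46, -0.72 and -0.30. In the stromal sum COL1A1 and COL1A2 were at -1.22 and -0.70. COL3A1, LUM, PDGFRA, PDGFRB, THY1 and POSTN were also below 0, between -1.52 and -0.07, whereas VIM and DCN were at 0.10 and 0.02. Without R7 and R9, COL1A1, COL1A2 and DCN were at -0.21, -0.31 and -0.56, and VIM and THY1 at 0.15 and 0.16. POSTN, PDGFRB, LUM, PDGFRA and COL3A1 were then at -0.88, -0.53, -0.31, -0.04 and -0.01. The summed level of 6 endothelial markers was 3.73 to 6.70 CPM with progesterone and 2.99 to 5.03 CPM with DMSO, with CDH5 at 5 counts or fewer per library. VWF made up most of it in the progesterone libraries and in DMSO R1 and R3. In DMSO R7 and R9, VWF was at 1.66 and 1.59 CPM, of sums of 2.99 and 3.78 CPM. The summed level of 6 leukocyte markers was 8.88 to 13.9 CPM with progesterone and 5.52 to 13.2 CPM with DMSO, mostly CD14 (up to 332 counts) and CD68 (up to 79 counts), with PTPRC at 0 in all libraries. The summed level of 6 smooth muscle markers was 1751 to 2287 CPM with progesterone and 2245 to 3107 CPM with DMSO, with both highest values in R7 and R9. TAGLN and ACTA2 made up most of it. TAGLN was at 1186 and 1402 CPM in DMSO R1 and R3, and at 2203 and 2071 CPM in R7 and R9. None of the 5 tested passed in edgeR. TAGLN was at -0.71 on the log2 scale, and at -0.29 without R7 and R9. The part of all these markers in the results below was not tested.

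With progesterone, the RNA of the PI3K inhibitor PIK3IP1 rose 2.34-fold and that of FOXO3 rose 1.62-fold. IRS2 was 2.21-fold higher, with no overlap between groups, and missed the threshold narrowly. INSR, IRS1, PIK3CA, PIK3R1, AKT1 and FOXO1 did not pass, with log2 fold changes between -0.33 and 0.27. Of the 9 genes, 2 passed the threshold of 0.05 on p adjusted over all genes tested (Benjamini-Hochberg, edgeR's quasi-likelihood test), against 2.65% of all 13557 genes. Both were higher, as were 1.69% of all genes, and none was lower, as were 0.959%. An unadjusted p under 0.05 was found for 3 of the 9 and for 26.8% of all genes. At 3 of the 9 the groups did not overlap, which was also so for 16.2% of all genes. Without DMSO R7 and R9, PIK3IP1, FOXO3 and IRS2 passed, against 1.18% of 13764 genes. The median log2 fold change of the 9 was 0.20, beside -0.01 over all genes. The 9 genes were chosen with earlier results of these data known, so these shares do not test them as a set. In bulk RNA, a change in the share of cells that express a gene and a change in RNA per cell cannot be told apart.

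**Figure D1:**
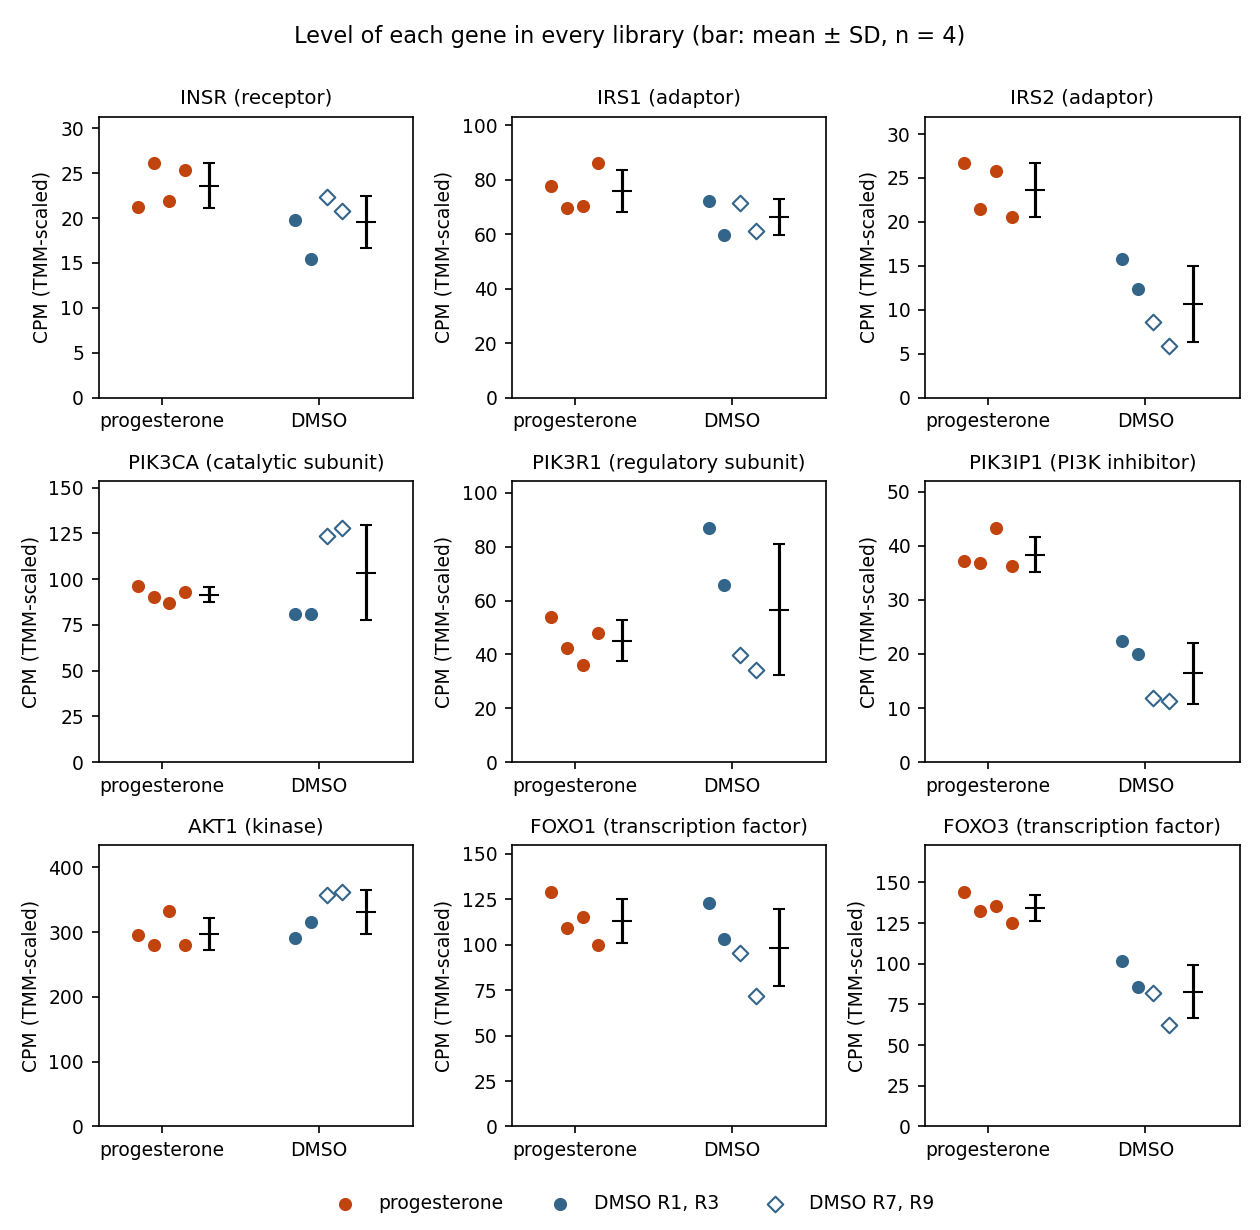
Level of each of the 9 genes in every library, in CPM (counts scaled to a common library total, with TMM factors; axis from 0), with progesterone at the left and DMSO at the right of each panel; open diamonds are DMSO R7 and R9, and bars give the mean ± SD of 4 libraries. The groups are separate for IRS2, PIK3IP1 and FOXO3. DMSO R7 and R9 both lie below R1 and R3 for IRS2, PIK3IP1, FOXO3, PIK3R1 and FOXO1, and above them for PIK3CA, AKT1 and INSR. On the log2 scale, the mean of R7 and R9 over that of R1 and R3 is -1.05 for PIK3R1 and -0.96 for IRS2. It is -0.87 for PIK3IP1 and 0.64 for PIK3CA, and nearer 0 for the rest.

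INSR encodes the insulin receptor. It was at 21.2, 26.1, 21.8 and 25.4 CPM in progesterone R1, R2, R3 and R6, against 19.8, 15.5, 22.3 and 20.8 CPM in DMSO R1, R3, R7 and R9. The groups overlapped, DMSO R3 being the lowest library. The means were 23.6 ± 2.47 and 19.6 ± 2.93 CPM (SD, n = 4 each), a log2 fold change of 0.27 ± 0.13 (SE, edgeR adjusted p = 0.216). Without R7 and R9 it was 0.43 ± 0.14 (edgeR adjusted p = 0.169), with every progesterone library above both remaining DMSO libraries. The related receptor gene IGF1R, the receptor for the growth factor in the medium, had 219 to 269 CPM with progesterone and 183 to 211 CPM with DMSO (log2 fold change 0.26 ± 0.09, edgeR adjusted p = 0.114), and 0.21 once R7 and R9 are left out.

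The adaptors behaved unequally. IRS2, the adaptor whose RNA is under FOXO control in many tissues, was at 26.7, 21.5, 25.7 and 20.5 CPM in progesterone R1, R2, R3 and R6. It was at 15.8, 12.4, 8.65 and 5.86 CPM in DMSO R1, R3, R7 and R9. The lowest progesterone library thus lay above the highest DMSO library, and R7 and R9 were the lowest of all. The means were 23.6 ± 3.05 and 10.7 ± 4.34 CPM, and the log2 fold change was 1.14 ± 0.26 (95% interval 0.56 to 1.73, edgeR adjusted p = 0.0514). Without R7 and R9 the change was smaller, 0.76 ± 0.15, and passed (edgeR adjusted p = 0.0444). IRS2 also passed in DESeq2 (adjusted p = 0.000798) and in limma voom (0.0406). It missed the threshold under each other scaling or filter and with unrounded counts, with edgeR adjusted p up to 0.0609. With 1 library left out, IRS2 passed without DMSO R1 (edgeR adjusted p = 0.0131) or DMSO R3 (0.0492) and missed it without any of the other 6, at 0.0803 to 0.142.

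IRS1, the other widely expressed adaptor, was at 77.8, 69.7, 70.3 and 86.0 CPM with progesterone and at 72.3, 59.8, 71.7 and 61.3 CPM with DMSO, in the same library order. The groups overlapped, and R7 and R9 lay within the range of R1 and R3. Its log2 fold change was 0.20 ± 0.10 with all libraries (edgeR adjusted p = 0.238) and 0.21 ± 0.12 without R7 and R9. The 95% interval of -0.03 to 0.42 leaves out a change of the size seen for IRS2.

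PIK3CA encodes the catalytic subunit p110α. It was at 96.2, 90.1, 87.0 and 92.8 CPM with progesterone, against 81.1 and 80.9 CPM in DMSO R1 and R3 and 124 and 128 CPM in DMSO R7 and R9. The progesterone libraries thus lay between the DMSO pairs, close to R1 and R3. The log2 fold change was -0.18 ± 0.16 with all libraries (edgeR adjusted p = 0.482) and 0.19 ± 0.08 without R7 and R9 (adjusted p = 0.306), so its sign depended on that pair.

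PIK3R1 encodes the regulatory subunit p85α, which stabilises p110 and links it to the adaptors. It was at 53.8, 42.3, 36.0 and 48.1 CPM with progesterone, against 87.0 and 65.8 CPM in DMSO R1 and R3 and 39.8 and 34.1 CPM in DMSO R7 and R9. Here the order of the DMSO pairs was opposite to that of PIK3CA, and every progesterone library lay below R1 and R3. The log2 fold change was -0.33 ± 0.28 with all libraries (95% interval -0.97 to 0.30, edgeR adjusted p = 0.469). It was -0.75 ± 0.16 without R7 and R9 (95% interval -1.11 to -0.39, edgeR adjusted p = 0.0639). Without DMSO R1 alone it was -0.047, and without DMSO R9 alone -0.51. When R7 and R9 had a term of their own in the model the value was -0.76 and passed (edgeR adjusted p = 0.0295). With that term progesterone is again set against DMSO R1 and R3 alone. It is thus the same comparison as the fit without R7 and R9, which did not pass, and not a further result.

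PIK3IP1 encodes a transmembrane protein that binds p110 and restrains PI3K. It was at 37.2, 36.7, 43.3 and 36.3 CPM in progesterone R1, R2, R3 and R6, against 22.4, 20.01, 11.9 and 11.3 CPM in DMSO R1, R3, R7 and R9. All progesterone libraries lay above all DMSO libraries, and R7 and R9 were the lowest. The means were 38.4 ± 3.31 and 16.4 ± 5.65 CPM (log2 fold change 1.23 ± 0.21, 95% interval 0.75 to 1.71, edgeR adjusted p = 0.0262). It ranked 96 by p among all genes tested. Without R7 and R9 the change was smaller and its error lower, 0.87 ± 0.11 (edgeR adjusted p = 0.00615). The call was lost without DMSO R7 alone (edgeR adjusted p = 0.0692) and without progesterone R1, R2, R3 or R6 (0.0745, 0.0751, 0.0804 and 0.0770), with log2 fold changes between 1.10 and 1.26.

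AKT1 encodes the kinase at the centre of the pathway. It was at 295, 280.0, 333 and 279.6 CPM with progesterone and at 291, 316, 358 and 362 CPM with DMSO, in the same library order. The groups overlapped, with the highest values in R7 and R9. Its log2 fold change was -0.16 ± 0.10 (95% interval -0.38 to 0.06, edgeR adjusted p = 0.325) and -0.02 ± 0.10 without R7 and R9. AKT2, named outside the rule for named genes because it enters a ratio below, did not pass either (log2 fold change 0.07 ± 0.08, and 0.00 in the fit that leaves out R7 and R9).

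FOXO3 encodes a transcription factor that AKT and the SGK kinases inhibit by phosphorylation. It was at 144, 133, 136 and 125 CPM in progesterone R1, R2, R3 and R6, against 101, 85.7, 82.1 and 62.2 CPM in DMSO R1, R3, R7 and R9. The groups did not overlap, and R9 was the lowest library. The means were 134 ± 7.95 and 82.9 ± 16.1 CPM (log2 fold change 0.70 ± 0.13, 95% interval 0.40 to 0.99, edgeR adjusted p = 0.0308). Without R7 and R9 it was 0.53 ± 0.10 (edgeR adjusted p = 0.0332). The call was lost without DMSO R7 alone (edgeR adjusted p = 0.0909) and without progesterone R1, R2, R3 or R6 (0.0808, 0.0921, 0.0825 and 0.0770), with log2 fold changes between 0.66 and 0.73.

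FOXO1 encodes the FOXO factor best known in endometrium. It was at 129, 109, 115 and 100.003 CPM with progesterone and at 123, 103, 95.3 and 71.8 CPM with DMSO, in the same library order. The groups overlapped, and only R7 and R9 lay below every progesterone library. The log2 fold change was 0.20 ± 0.15 (95% interval -0.13 to 0.53, edgeR adjusted p = 0.399) and 0.01 ± 0.11 without R7 and R9. Of the other FOXO genes, given outside the rule to complete the family, FOXO4 was at 18.2 to 20.9 CPM with progesterone and 13.9 to 16.7 CPM with DMSO (log2 fold change 0.38 ± 0.11, edgeR adjusted p = 0.0736). FOXO6 was at 0.18 ± 0.28 on the log2 scale. With R7 and R9 left out, the values were 0.34 for FOXO4 and -0.06 for FOXO6.

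**Figure D2:**
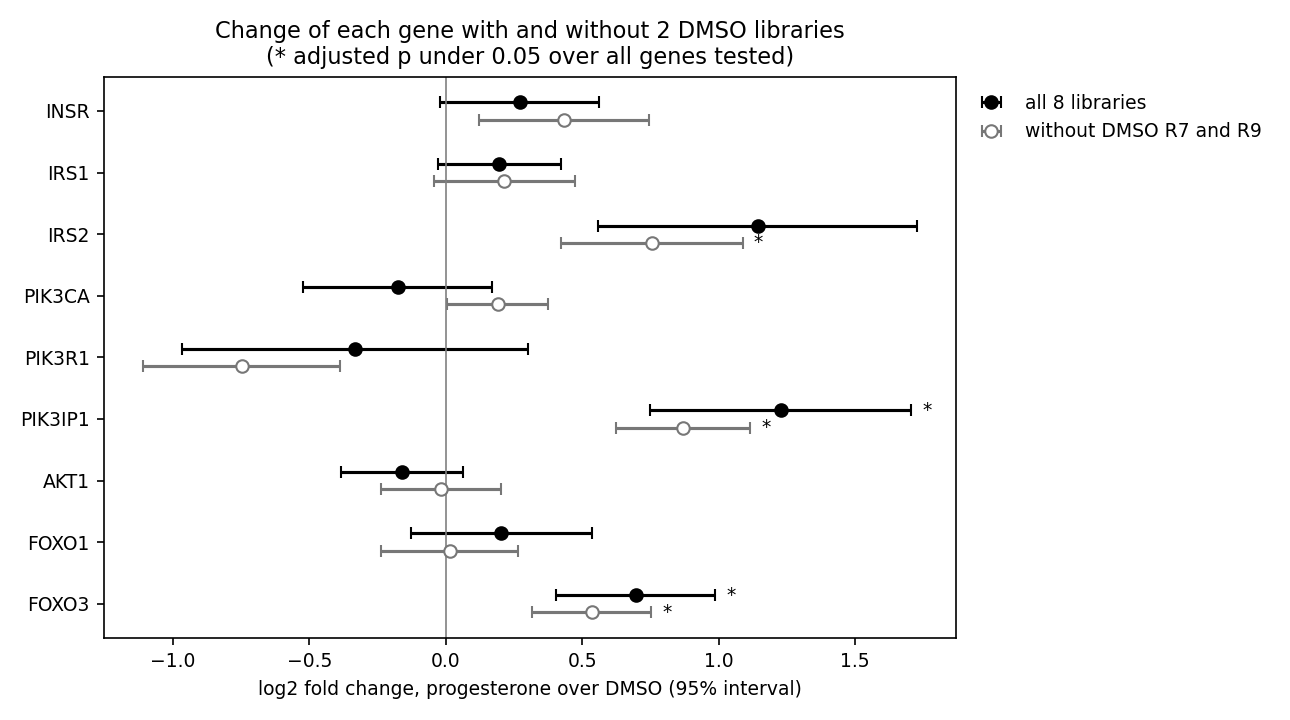
Log2 fold change of each gene, progesterone over DMSO, with its 95% interval, from all 8 libraries (filled circles) and without DMSO R7 and R9 (open circles); an asterisk marks an edgeR adjusted p under 0.05. PIK3IP1 and FOXO3 carry it in both fits and IRS2 in the second, while PIK3CA lies on opposite sides of 0 in the fits.

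Levels in CPM depend on a scaling factor per library, but the ratio of 2 genes within a library does not. In all, 6 such pairs were compared by an exact permutation test of the group means (two-sided, log2 of estimated counts plus 0.5), for which 4 against 4 libraries allow no p below 0.0286. These pairs were chosen with earlier results of these data known. No division by gene length was made here, and how the deposited counts treat length is not known. Only differences of the ratios between libraries can therefore be read. FOXO3 over FOXO1 was 0.16, 0.28, 0.24 and 0.32 in progesterone R1, R2, R3 and R6, against -0.28, -0.27, -0.22 and -0.21 in DMSO R1, R3, R7 and R9. The groups were separate and each was narrow, with R7 and R9 close to R1 and R3. The means differed by 0.49 (0.25 ± 0.07 and -0.24 ± 0.04, exact p = 0.0286, adjusted over the 6 pairs 0.0571).

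IRS2 over IRS1 was -1.55, -1.70, -1.45 and -2.07 with progesterone, against -2.19, -2.27, -3.05 and -3.38 with DMSO. PIK3IP1 over PIK3CA was -1.37, -1.29, -1.004 and -1.35 with progesterone, against -1.86, -2.02, -3.38 and -3.50 with DMSO. Both were higher in every progesterone library than in any DMSO library, by 1.03 and 1.43 between means (exact p = 0.0286 each, adjusted 0.0571). Without R7 and R9 these differences were 0.54 and 0.68, and that of FOXO3 over FOXO1 was 0.52, where the exact test could not go below 0.0667. The exact p was 0.133 for IRS2 over IRS1 and 0.0667 for PIK3IP1 over PIK3CA and for FOXO3 over FOXO1. FOXO3 over FOXO1 thus moved little with that pair, while the others moved by over 1.5 times.

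The other pairs overlapped between groups. PIK3R1 over PIK3CA was -0.84, -1.09, -1.27 and -0.95 with progesterone, against 0.10 and -0.30 in DMSO R1 and R3 and -1.64 and -1.91 in DMSO R7 and R9. The progesterone libraries lay between the DMSO pairs, so that the means differed by only -0.10 (exact p = 0.857), and by -0.94 without R7 and R9. INSR over IGF1R differed by 0.02 (exact p = 0.857) and AKT2 over AKT1 by 0.23 (exact p = 0.229). With R7 and R9 left out, the differences were 0.24 for INSR over IGF1R and 0.02 for AKT2 over AKT1.

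**Figure D3:**
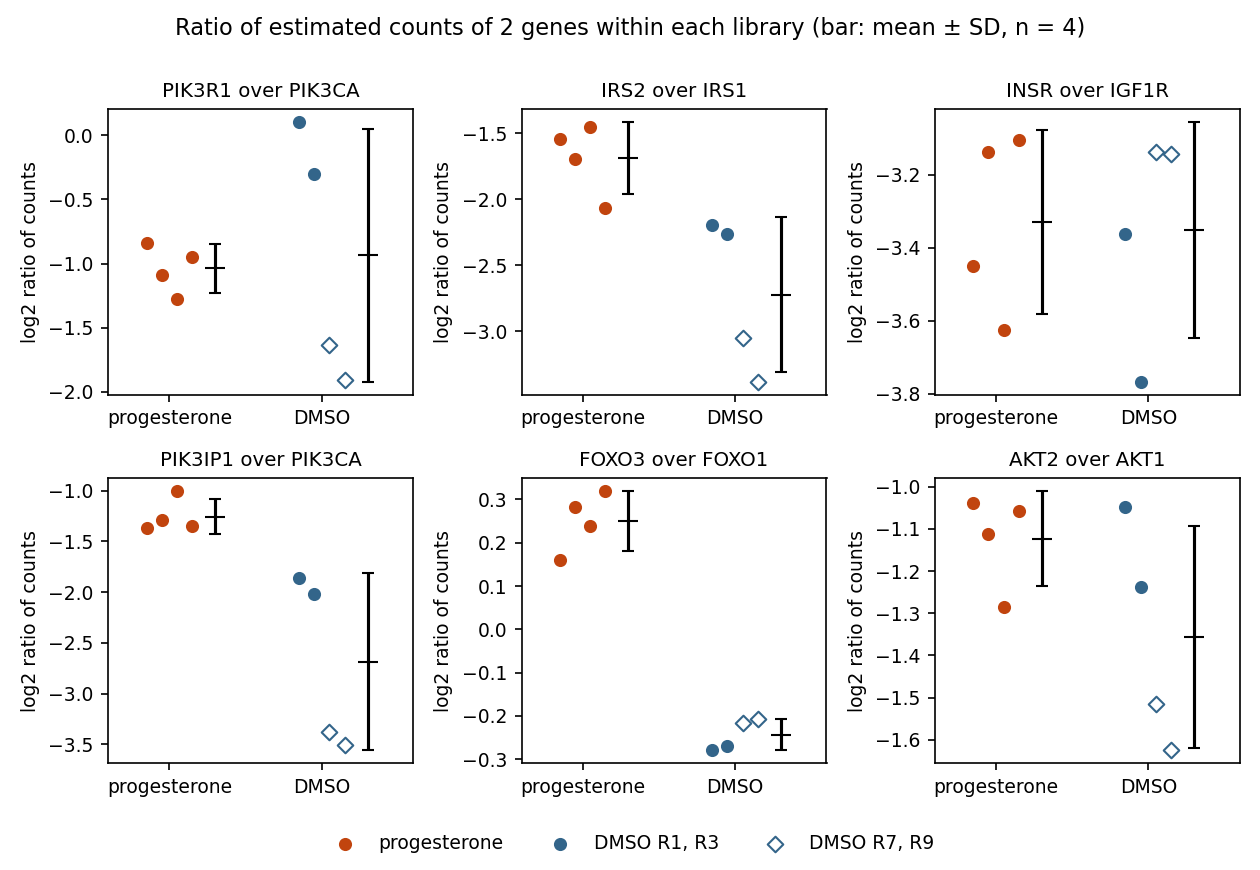
Log2 ratio of the estimated counts of 2 genes in each library, with progesterone at the left and DMSO at the right of each panel; open diamonds are DMSO R7 and R9, bars give the mean ± SD of 4 libraries, and each panel has its own axis range. FOXO3 over FOXO1 separates the groups with all 4 DMSO libraries between -0.28 and -0.21, whereas PIK3R1 over PIK3CA splits the DMSO libraries on either side of progesterone.

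Across the 8 libraries the log2 CPM of PIK3IP1, IRS2 and FOXO3 varied together, with Pearson r of 0.957 for PIK3IP1 with FOXO3, 0.974 for PIK3IP1 with IRS2 and 0.986 for FOXO3 with IRS2. Over the 6 libraries without R7 and R9 these were 0.953, 0.948 and 0.985. Some other pairs moved with R7 and R9. PIK3IP1 with PIK3CA had r = -0.68 over 8 libraries and 0.79 over 6, and FOXO1 with FOXO3 had 0.81 and 0.34. The points share the treatment groups and the library scaling, and these values are a description. Of the other genes searched in the same way, those closest to PIK3IP1 were PIR (0.995), UCKL1 (0.995) and ERCC1 (0.990). Those closest to FOXO3 were TSSK3 (0.994), BTBD2 (0.993) and CTF1 (0.989), and those closest to IRS2 were GTPBP6 (0.992), SIX5 (0.989) and AKR7A2 (0.988). Over 8 points the highest of so many correlations is high for any gene: for the remaining members it lay between 0.965 (ARHGAP32 with IRS1) and 0.996 (DAPK3 with AKT1).

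Among 128 other tested genes of the pathway, grouped by role, 5 rose, 1 fell and 122 did not pass. This was 4.69%, beside 2.65% of all genes, in lists that were also chosen with earlier results of these data known. The groups did not overlap at 20.3% of the 128, beside 16.2% of all genes, with a median log2 fold change of 0.02. Without R7 and R9, 3 of 128 passed, all higher: SH2B1, SGK1 and KLF15. With DMSO R7, DMSO R9 or any progesterone library left out alone, between 1 and 3 passed, SGK1 each time. Of all genes, 42 to 82 passed in these fits, among 13638 to 13748 tested. Without DMSO R1, 20 of the 128 passed, where 13.0% of all genes did, and without DMSO R3, 8 did, where 5.78% did. DESeq2 called 17 of the 128, beside 13.5% of all genes, and voom 4, beside 2.04%. The 4 were SGK1, KLF15, BCL6 and TXNIP.

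Of 13 adaptors, SH2B1 rose and 12 did not pass. SH2B1, an SH2-domain protein that binds the activated insulin receptor, was at 52.1, 53.4, 54.4 and 50.1 CPM in progesterone R1, R2, R3 and R6, against 39.1, 38.9, 45.0 and 39.3 CPM in DMSO R1, R3, R7 and R9. The groups did not overlap (log2 fold change 0.37 ± 0.08, edgeR adjusted p = 0.0479). Leaving out R7 and R9 gave 0.44 (edgeR adjusted p = 0.0425). With 1 library left out, SH2B1 passed only without DMSO R1 and missed the threshold in the other 7 fits (edgeR adjusted p 0.0521 to 0.128). Among the adaptors DESeq2 called 2 and voom 0, beside 13.5% and 2.04% of all genes. Of 9 AKT-related kinases, SGK1, which is activated downstream of PI3K and phosphorylates FOXO3, rose and 8 did not pass. It was at 112, 99.1, 118 and 181 CPM with progesterone and 39.0, 44.1, 50.2 and 50.8 CPM with DMSO. Progesterone R6 was the highest library (log2 fold change 1.47 ± 0.18, edgeR adjusted p = 0.00784). Leaving out R7 and R9 gave 1.63 (edgeR adjusted p = 0.0237). SGK1 passed with any 1 library left out.

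Of 13 other AKT substrates, TBC1D4 rose and 12 did not pass. TBC1D4, also called AS160, holds the glucose transporter GLUT4 inside muscle and fat cells until AKT phosphorylates it. It was at 166, 145, 126 and 151 CPM with progesterone, against 122, 98.01, 80.3 and 82.6 CPM with DMSO. The ranges were close, 126 and 122 CPM being the nearest libraries. The log2 fold change was 0.62 ± 0.14 (edgeR adjusted p = 0.0489), and without R7 and R9 it was 0.43 and did not pass (adjusted p = 0.137). It also missed the threshold in voom (adjusted p = 0.0515), with library-size scaling (0.0634) and in 6 of the 8 fits with 1 library left out, all but those without DMSO R1 or R3. Among these substrates DESeq2 called 6 and voom 0, beside 13.5% and 2.04% of all genes.

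Of 28 genes reported to be raised by FOXO factors, 2 rose, 1 fell and 25 did not pass, with a median log2 fold change of 0.05. KLF15, a transcription factor that glucocorticoids also induce, was at 4.83, 4.92, 4.39 and 3.72 CPM with progesterone, against 1.09, 1.69, 1.59 and 0.719 CPM with DMSO. It was higher in every progesterone library (3.49-fold, log2 fold change 1.80 ± 0.28, edgeR adjusted p = 0.0172). Leaving out R7 and R9 gave 1.70 (edgeR adjusted p = 0.0139). BCL6, a transcriptional repressor, was at 101 to 113 CPM with progesterone and 72.2 to 84.6 CPM with DMSO (log2 fold change 0.43 ± 0.08, edgeR adjusted p = 0.0327), and it missed the threshold when R7 and R9 were left out (0.45, edgeR adjusted p = 0.0544). TXNIP, an arrestin that restrains glucose uptake, went against the name of the list. It was at 15.9 to 46.5 CPM with progesterone and 73.3 to 101 CPM with DMSO, a log2 fold change of -1.78 ± 0.31 (edgeR adjusted p = 0.0303), and without R7 and R9 it was -1.63 and did not pass (0.146). With 1 library left out, BCL6 passed only without DMSO R1 or R3, TXNIP only without DMSO R1, DMSO R3 or progesterone R3, and KLF15 in all fits but those without progesterone R1, R2 or R3. DESeq2 called 6 of the 28 and voom 3, beside 13.5% and 2.04% of all genes. The members IRS2, INSR and PIK3CA are often counted among FOXO targets too, and are left out of this count.

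In the remaining roles edgeR called none, and the counts there are to be read beside the shares over all genes: 26.8% with an unadjusted p under 0.05, 13.5% called by DESeq2 and 2.04% by voom. Of 9 receptors and their regulators, the unadjusted p was under 0.05 for 5, while DESeq2 called 1 and voom 0. The smallest p was that of SOCS2, a suppressor of cytokine signalling, at 1.47 to 2.23 CPM with progesterone and 2.35 to 4.48 CPM with DMSO (log2 fold change -0.98 ± 0.29, edgeR adjusted p = 0.0831), and at -0.46 in the fit that leaves out R7 and R9. Of 8 other PI3K subunits, the unadjusted p was under 0.05 for 2, while DESeq2 and voom called 0. These were PIK3CD, the catalytic subunit p110δ (log2 fold change 0.54 ± 0.22), and PIK3R3, a regulatory subunit (-0.31 ± 0.13). In the 6 libraries without R7 and R9, PIK3CD was at 0.22 (edgeR adjusted p = 0.538) and PIK3R3 at -0.17 (0.615).

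Of 16 phosphatases and other inhibitors of PI3K or AKT, the unadjusted p was under 0.05 for 3, while DESeq2 called 1 and voom 0. PPP2CA, a catalytic subunit of protein phosphatase 2A, was at -0.29 ± 0.09 and PHLPP2, an AKT phosphatase, at -0.33 ± 0.11 on the log2 scale, with edgeR adjusted p of 0.0846 and 0.0989. Both were at -0.17 in the fit that leaves out R7 and R9. Of 16 genes of the mTOR complexes, the unadjusted p was under 0.05 for 3, while DESeq2 called 1 and voom 0. The smallest p belonged to RPS6, a ribosomal protein phosphorylated downstream of mTOR (log2 fold change 0.41 ± 0.14), and TSC2, a brake on mTOR (0.38 ± 0.13). In the 6 libraries without R7 and R9 the values were 0.23 for RPS6 (edgeR adjusted p = 0.378) and 0.16 for TSC2 (0.427). Of 18 genes acting on FOXO proteins, the unadjusted p was under 0.05 for 3, while DESeq2 and voom called 0. SKP2, a ubiquitin ligase component that targets FOXO1, was at -0.30 ± 0.10 and USP7, a FOXO deubiquitinase, at -0.22 ± 0.08 on the log2 scale. The values with R7 and R9 left out were -0.39 for SKP2 and -0.14 for USP7.

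**Figure D4:**
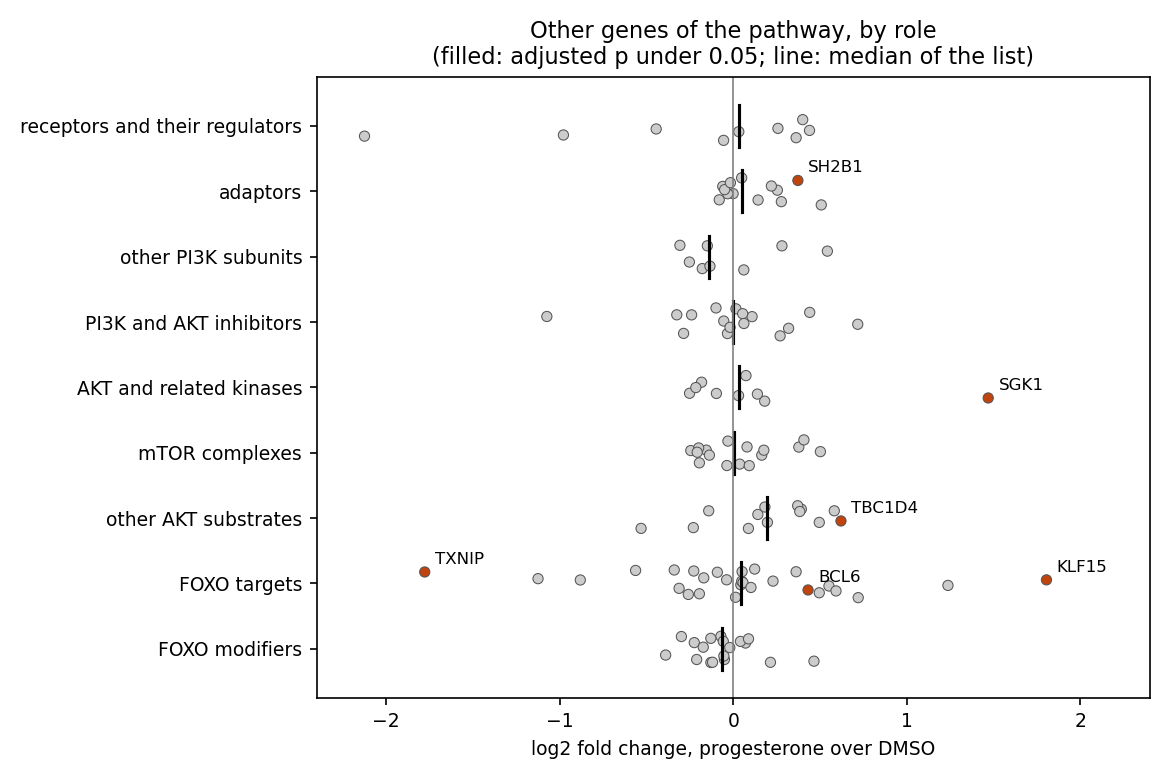
Log2 fold change, progesterone over DMSO, of the 128 other pathway genes tested, 1 point per gene and list, in rows by role (a gene in 2 lists has a point in each); filled points passed at an edgeR adjusted p under 0.05 and vertical bars are list medians. The 5 genes that rose (SH2B1, SGK1, TBC1D4, BCL6, KLF15) and TXNIP, which fell, are labelled, and list medians lie between -0.14 and 0.20.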

How the data were processed

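Poly(A) RNA libraries were made with a stranded kit, per the labels' protocols. The authors deposited estimated counts per gene, not whole numbers, in a table whose name gives length normalization. Salmon 1.4.0, bcl2fastq and the build ARS-UCD1.2 are listed, without roles, in the submitters' processing notes. No source used here says how transcripts were summed. Column names show each library's group but not which sample it is.

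The deposited estimated counts were rounded, filtered with filterByExpr, TMM-scaled and tested between progesterone and DMSO with edgeR 4.0.16 (quasi-likelihood, robust, two-sided, R 4.3.3), with no term but the group. P-values were adjusted by Benjamini-Hochberg over the 13557 genes tested, with a threshold of 0.05. SEs are the log2 fold change over the square root of F. Log2 CPM for correlations used a prior count of 2. No library repeated another of its group (pairwise chi-square per degree of freedom 14.2 to 129).

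Members, lists, ratios and tests were chosen with earlier results of these data known. Of 144 other pathway symbols 143 were matched and 128 tested. Named genes are all members and, per list, those that passed (at most 6) or else the 2 of smallest p, and for likeness the 3 genes of highest r among those with at least 1 CPM. Alternatives were other scalings, filters and tools (DESeq2 1.42.0, limma 3.58.1 voom), unrounded counts, leaving out libraries and a replicate block. Leaving out DMSO R7 and R9 and a term for them were added after seeing the data. Some genes counted in the lists are not reported here by name.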

Additional observations from a re-analysis of the deposited data

Results flagged for a closer look

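In 62 groups of 4 values (the 25 genes named by rule and the 6 ratios, each in both groups), 3 libraries stood far from the other 3 of their group by Dixon's criterion, and chance gives about 1 in 20. PIK3IP1 was at 43.3 CPM in progesterone R3, with 36.3 to 37.2 CPM in the other progesterone libraries. SOCS2 was at 2.23 CPM in progesterone R6, with 1.47 to 1.59 CPM in the others. SH2B1 was at 45.0 CPM in DMSO R7, with 38.9 to 39.3 CPM in the other DMSO libraries.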

How the results depend on the processing

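Over 7 other scalings, filters, tools and unrounded counts, PIK3IP1 (log2 fold change 1.22 to 1.29) and FOXO3 (0.69 to 0.72) passed each time. IRS2 also passed in DESeq2 (1.15) and limma voom (1.23). DESeq2 called 1830 genes, 17 of them other pathway genes. Leaving out 1 library at a time gave 42 to 1782 genes, 0 to 3 members and 1 to 20 other pathway genes. The log2 fold change then lay between 1.09 and 1.42 for PIK3IP1, 0.58 and 0.81 for FOXO3 and 0.94 and 1.396 for IRS2. In the same way PIK3R1 over PIK3CA lay between -0.43 and 0.24 and INSR over IGF1R between -0.12 and 0.12. INSR over IGF1R was below 0 without DMSO R3 (-0.12), progesterone R2 (-0.04) or R6 (-0.05), and PIK3R1 over PIK3CA above 0 without DMSO R1 (0.24) or R3 (0.11). Without DMSO R7 and R9, 162 genes and 3 other pathway genes passed, with IRS2 at 0.76 and PIK3CA at 0.19. With a term for that pair, which also sets progesterone against DMSO R1 and R3 alone, 278 of 13557 genes passed. Among them were 4 members (PIK3IP1, FOXO3, IRS2 and PIK3R1). IRS2 was then at 0.74, PIK3R1 at -0.76 and PIK3CA, which did not pass, at 0.18. For the replicate block, only the column numbers R1 and R3 occur in both groups, and same-numbered libraries had deviations correlated at 0.23 and 0.21, which does not show that numbers pair samples. The block rests on these 4 libraries and called 2531 genes, 5 members and 27 other pathway genes, with IRS2 at 0.90, INSR at 0.29, PIK3R1 at -0.78, AKT1 at 0.048 and PIK3CA at 0.18. Other than where the number of libraries or genes tested changed by construction, the cause was not tested. IRS2 in DMSO R9, with 155 counts, has the least depth of the members.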

Other observations

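Several pathway genes that missed the threshold had separate groups, and those given here were chosen after their values were seen. Among the 128, those that passed included, the groups were separate for 18 higher and 8 lower genes. Over all genes this was so for 16.2%, in either direction. SESN1, a sestrin that restrains mTOR complex 1, was at 25.5, 18.9, 17.8 and 29.4 CPM in progesterone R1, R2, R3 and R6, against 17.2, 9.11, 6.41 and 6.13 CPM in DMSO R1, R3, R7 and R9 (log2 fold change 1.24 ± 0.33, edgeR adjusted p = 0.0716). Leaving out R7 and R9 gave 0.81 (edgeR adjusted p = 0.216). CDKN1B, the cyclin-dependent kinase inhibitor p27, averaged 42.5 ± 2.19 CPM with progesterone and 30.2 ± 7.08 CPM with DMSO (SD, n = 4 each), and SOD2, the mitochondrial superoxide dismutase, 53.2 ± 3.87 and 41.4 ± 2.99 CPM. Leaving out R7 and R9 gave log2 fold changes of 0.26 for CDKN1B (edgeR adjusted p = 0.205, against 0.50 with all libraries) and 0.35 for SOD2 (0.112). With all libraries both were higher in 4 of 4 progesterone libraries than in any DMSO library. ACLY was also separate and higher (log2 fold change 0.58, edgeR adjusted p = 0.0516), and at 0.72 without R7 and R9 (0.0641). GSK3B was separate and lower (-0.53, edgeR adjusted p = 0.0770), and at -0.19 without that pair (0.347). DESeq2 called SESN1, CDKN1B, SOD2, ACLY and GSK3B, among 1830 genes in all, 13.5% of those tested.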
